A study of Homo sapiens with 10 samples.

Results

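Integrins are cell surface receptors made of 1 α and 1 β subunit, which bind proteins of the extracellular matrix outside the cell and the cytoskeleton inside it. The pairing of subunits sets the ligand: ITGB1 joins many α subunits, and ITGB4 joins ITGA6 alone in the hemidesmosome (the anchor of epithelial cells on laminin). ITGAV joins several β subunits, among them ITGB1, ITGB5, ITGB6 and ITGB8. In ovarian cancer, which spreads over the mesothelium and matrix of the abdominal cavity, these receptors are known as the means of attachment. The 10 genes described here are the α subunits ITGA2, ITGA3, ITGA5, ITGA6 and ITGAV and the β subunits ITGB1, ITGB4, ITGB5, ITGB6 and ITGB8, found by name in the deposited transcript annotation. They had 27 transcripts among the 99493 annotated (10 of 57110 genes). At least 1 library held 1 or more counts of 19 of the 27, and none belonged to genes that the annotation joins under several names.

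The study sequenced RNA of human ovarian cancer cell lines on nanopore instruments to benchmark Isosceles, a program that assigns long reads to transcripts. COV362, COV504, OVKATE, OVMANA, OVTOKO and SK-OV-3 had 1 PromethION library each, and IGROV-1 had 2 PromethION and 2 MinION libraries, which gives 8 groups in 10 libraries. All cells were unmodified lines with no treatment named in the labels, which say nothing of clone, passage or culture. The totals ran from 1729782 to 3666224 estimated counts per library (median 2287873), so that 3 counts, used here as the limit of detection, stood for 0.82 to 1.73 CPM (counts scaled to a library total of 1000000). These limits and the 95% intervals below cover counting error only, and in bulk RNA fewer cells with a transcript and less RNA per cell cannot be told apart. Mitochondrial ribosomal RNA took 9.13% and 10.95% of the counts in the PromethION libraries of IGROV-1 and 1.01% to 3.31% in the other 8 libraries. With the mitochondrial genes left out of the fit, 1 member call was lost (ITGA2 in OVKATE).

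A pair of exon choices changes what these receptors carry inside the cell, and their sequences are shown because the results on isoforms turn on them. In ITGA6 (chromosome 2, 172427354 to 172506282, plus strand, GRCh38), an internal exon of 130 bases (chr2:172501772-172501901) is either included or skipped. When it is included, 35 codons and a stop codon end the protein within that exon, which gives the tail known as α6A. When it is skipped, 53 codons of the last exon and its stop codon take their place, which gives the tail known as α6B. Both coding parts are printed from the GENCODE 29 transcripts ENST00000264107 (chr2:172501772-172501879) and ENST00000409080 (chr2:172504091-172504252), with the stop codon in capitals.
ITGA6 exon included: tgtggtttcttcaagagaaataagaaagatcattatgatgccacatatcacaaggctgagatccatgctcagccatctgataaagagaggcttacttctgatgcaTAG
ITGA6 exon skipped: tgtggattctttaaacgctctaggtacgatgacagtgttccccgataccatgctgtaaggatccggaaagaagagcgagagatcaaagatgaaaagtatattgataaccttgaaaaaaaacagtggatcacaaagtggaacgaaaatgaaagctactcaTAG

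In ITGB4 (chromosome 17, 75721328 to 75757818, plus strand), whose long cytoplasmic part docks onto the hemidesmosome plaque, 2 exons near the 3′ end add codons without moving the frame. An exon of 210 bases (chr17:75753765-75753974), with 80.0% G and C, adds 70 codons and belongs to ENST00000200181. An exon of 159 bases (chr17:75755055-75755213), with 68.6% G and C, adds 53 codons and belongs to ENST00000449880. That transcript also starts at 75724696, downstream of the start of ENST00000200181 at 75721436, so the use of the exon of 159 bases and of the start site cannot be told apart in transcript counts.
ITGB4 exon of 210 bases: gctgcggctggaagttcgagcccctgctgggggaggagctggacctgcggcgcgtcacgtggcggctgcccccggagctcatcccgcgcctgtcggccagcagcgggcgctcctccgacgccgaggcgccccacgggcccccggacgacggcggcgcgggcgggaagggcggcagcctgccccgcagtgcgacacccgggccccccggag
ITGB4 exon of 159 bases: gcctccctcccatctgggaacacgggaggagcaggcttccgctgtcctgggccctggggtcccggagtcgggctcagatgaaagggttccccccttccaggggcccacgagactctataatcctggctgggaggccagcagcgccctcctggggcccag

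The 10 subunits differed between lines, ITGAV least. IGROV-1 held no count of ITGB4 in any of its 4 libraries, almost no ITGA3 and ITGB6, and its integrin counts came mostly from ITGAV and ITGB1. The other 6 lines all held ITGA3 and ITGB4. The map of levels by library shows every value, on a log scale and with the CPM printed in each cell. The values are estimated read counts not divided by transcript length, so levels are compared between libraries within a gene.

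**Figure D1:**
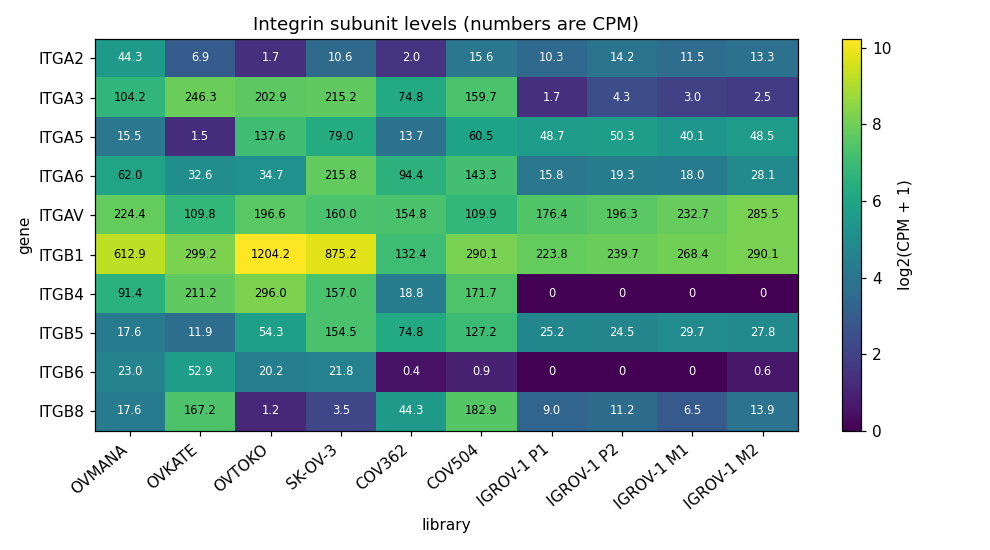
Level of each integrin gene in each library, with genes as rows, libraries as columns, the colour giving log2(CPM + 1) and the printed number the CPM; P1 and P2 are the PromethION and M1 and M2 the MinION replicates of IGROV-1. ITGB4 was 0 in the 4 IGROV-1 libraries and 18.8 to 296.0 CPM in the other lines, while ITGAV stayed between 109.8 and 285.5 CPM in all 10 libraries.

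Each of the 6 lines was compared with IGROV-1 on PromethION by edgeR's quasi-likelihood test with Benjamini-Hochberg adjustment over 13030 genes, and a gene was called at an adjusted p under 0.05. The 6 comparisons share the same 2 IGROV-1 libraries. Since only IGROV-1 has replicates, each lone library is assumed to vary as the IGROV-1 pairs do, and p-values measure only the spread between those libraries, which may be technical. Of the 10 members, 7 were called in OVMANA (6 higher and 1 lower), where 35.4% of all genes were called (18.9% higher and 16.5% lower). In OVKATE 8 members were called (4 higher and 4 lower) against 49.2% of all genes (26.8% and 22.4%). In OVTOKO 9 were called (7 higher and 2 lower) against 34.1% of all genes (18.2% and 15.9%). In SK-OV-3 6 were called, all higher, against 41.8% of all genes (22% and 19.8%). In COV362 8 were called (5 higher and 3 lower) against 42.5% of all genes (23.7% and 18.8%). In COV504 6 were called (5 higher and 1 lower) against 43.5% of all genes (24% and 19.6%). These counts include ITGB4 and ITGB6, which IGROV-1 PromethION held at 0 counts and which passed the filter on low counts through the other lines alone. Over the 48 pairs of a line and 1 of the 8 other members, 23 were called higher and 11 lower, and 20 of the 23 and 3 of the 11 were called under all 10 alternative settings. The trimmed-mean (TMM) scale of the test lay -0.30 (OVKATE) to 0.08 (OVTOKO) log2 units from plain CPM relative to IGROV-1, so fitted changes differ slightly from ratios of the CPM.

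**Figure D2:**
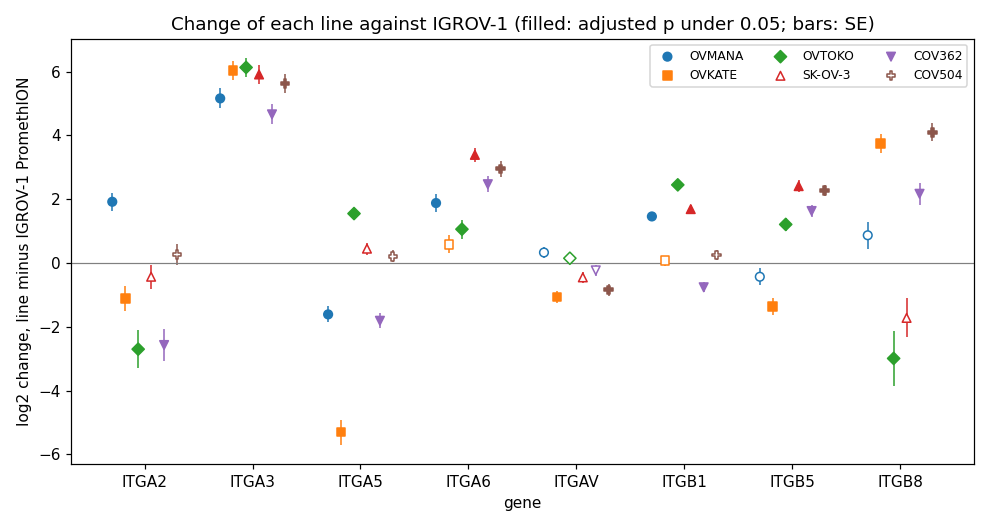
Log2 change of 8 integrin genes in each of 6 lines against IGROV-1 PromethION (y axis), with genes on the x axis, 1 symbol per line, filled where the edgeR adjusted p was under 0.05, and bars giving the standard error; ITGB4 and ITGB6 are left out because IGROV-1 PromethION held no counts of them. ITGA3 was higher in all 6 lines, by 4.66 to 6.13 log2 units, while ITGA2, ITGA5 and ITGB8 lay on both sides of 0.

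Among the laminin-binding α subunits, ITGA3 (ENSG00000005884, chromosome 17, 50055968 to 50090481, plus strand), which pairs with ITGB1 to bind laminin of epithelial basement membranes, was the one that set IGROV-1 apart from every other line. It stood at 246.3 CPM in OVKATE, 215.2 in SK-OV-3, 202.9 in OVTOKO, 159.7 in COV504, 104.2 in OVMANA and 74.8 in COV362. In IGROV-1 it stood at 1.7 and 4.3 CPM on PromethION (3.0 ± 1.8, SD, n = 2) and at 3.0 and 2.5 CPM on MinION, from 4 to 11 counts a library. The groups did not overlap, and the highest line held 82 times the IGROV-1 PromethION mean, which rests on 4 and 10 counts. ITGA3 was called higher in all 6 lines under all 10 alternatives, with log2 changes from 4.66 ± 0.31 (SE) in COV362 to 6.13 ± 0.29 in OVTOKO. Without IGROV-1 PromethION replicate 2 they ran from 5.46 to 6.93.

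Lines next to each other in a gene's order of levels were also compared, a test chosen after seeing the data. Over the 10 members 16 of 60 such neighbouring pairs were called, at the same threshold and over the same genes. The order was set by the same counts that were then tested, so the number of calls only describes the steps. The 16 include the ITGB4 step from COV362 to IGROV-1, which follows from the counts of 0. Against IGROV-1, 34.1% (OVTOKO) to 49.2% (OVKATE) of all genes were called. For pairs without IGROV-1 the share of all genes called was not counted, so these calls have no background beside them. For ITGA3 the step from COV362 to IGROV-1 was the one called (edgeR adjusted p = 2.1e-05), and the 5 steps among the other lines had adjusted p-values of 0.13 to 0.70.

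ITGA6 (ENSG00000091409), which binds laminin with ITGB1 or ITGB4, ranged widely between lines. It stood at 215.8 CPM in SK-OV-3, 143.3 in COV504, 94.4 in COV362, 62.0 in OVMANA, 34.7 in OVTOKO and 32.6 in OVKATE. The IGROV-1 libraries were lowest, at 15.8 and 19.3 CPM on PromethION (17.6 ± 2.5, SD, n = 2) and 18.0 and 28.1 CPM on MinION. No library of another line fell into the IGROV-1 range, but no step between neighbouring lines was called (edgeR adjusted p = 0.084 to 0.29). These steps were 0.44 to 0.82 log2 units, and the counting intervals of neighbours overlapped for OVTOKO and OVKATE alone. Against IGROV-1, ITGA6 was higher in SK-OV-3 by 3.39 ± 0.23 log2 units (SE; edgeR adjusted p = 2.3e-05), in COV504 by 2.95 ± 0.24 and in COV362 by 2.47 ± 0.25. It was higher in OVMANA by 1.88 ± 0.27 (edgeR adjusted p = 0.001). The change of 1.06 ± 0.30 in OVTOKO was called (edgeR adjusted p = 0.026) but missed the threshold without IGROV-1 MinION replicate 1 (0.052), with no filter on low counts (0.057) and with DESeq2 (0.24), and the change of 0.59 ± 0.29 in OVKATE was not called (0.13).

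The fibronectin receptor α subunit ITGA5 (ENSG00000161638, chromosome 12, 54395261 to 54419460, minus strand), which pairs with ITGB1, was highest in OVTOKO and nearly absent from OVKATE. Its levels were 137.6 CPM in OVTOKO, 79.0 in SK-OV-3, 60.5 in COV504, 15.5 in OVMANA, 13.7 in COV362 and 1.5 in OVKATE (3 counts). IGROV-1 lay in the middle, at 48.7 and 50.3 CPM on PromethION (49.5 ± 1.1, SD, n = 2) and 40.1 and 48.5 CPM on MinION. Against IGROV-1 it was higher in OVTOKO by 1.55 ± 0.18 log2 units (SE; edgeR adjusted p = 0.00035) and lower in OVKATE (-5.30 ± 0.39, 2.1e-05), COV362 (-1.81 ± 0.24, 0.00059) and OVMANA (-1.61 ± 0.25, 0.0015, and 0.080 with DESeq2). SK-OV-3 (0.45 ± 0.19, edgeR adjusted p = 0.086) and COV504 (0.21 ± 0.19, 0.40) were not called. Its order broke at 3 places: OVTOKO above SK-OV-3 (edgeR adjusted p = 0.006), IGROV-1 above OVMANA (0.0015) and COV362 above OVKATE (0.0016).

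ITGA2 (ENSG00000164171, chromosome 5, 52989326 to 53094779, plus strand), the collagen receptor subunit that pairs with ITGB1, was a low gene outside OVMANA. It stood at 44.3 CPM in OVMANA, 15.6 in COV504, 10.6 in SK-OV-3, 6.9 in OVKATE, 2.0 in COV362 and 1.7 in OVTOKO, the last 2 from 5 and 3 counts. IGROV-1 held 10.3 and 14.2 CPM on PromethION and 11.5 and 13.3 on MinION. OVMANA alone stood apart: it was above COV504, the next line down (edgeR adjusted p = 0.0057), and above IGROV-1 by 1.92 ± 0.28 log2 units (SE; 0.0011). ITGA2 was lower than IGROV-1 in COV362 (-2.57 ± 0.51, edgeR adjusted p = 0.0043) and in OVTOKO (-2.70 ± 0.60, 0.0091), the latter missing the threshold without IGROV-1 MinION replicate 1 (0.055). With DESeq2 the adjusted p of ITGA2 was 0.24 in OVMANA, 0.17 in COV362 and 0.21 in OVTOKO. The call in OVKATE (-1.11 ± 0.40, edgeR adjusted p = 0.046) was kept under 1 of 10 alternatives and was lost without IGROV-1 PromethION replicate 2 (0.20), MinION replicate 1 (0.096) or MinION replicate 2 (0.092). SK-OV-3 (-0.43 ± 0.37, 0.38) and COV504 (0.27 ± 0.33, 0.54) were not called.

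ITGAV (ENSG00000138448, chromosome 2, 186590065 to 186680901, plus strand), the α subunit that reads the RGD motif of vitronectin, fibronectin and latent TGFβ, was the most even member. It ran from 109.8 CPM in OVKATE and 109.9 in COV504 through 154.8 in COV362, 160.0 in SK-OV-3 and 196.6 in OVTOKO to 224.4 in OVMANA, which is 2.04 times the lowest line. IGROV-1 held 176.4 and 196.3 CPM on PromethION (186.4 ± 14.1, SD, n = 2) and 232.7 and 285.5 on MinION. The IGROV-1 libraries overlapped with those of the other lines, and no step between neighbouring lines was called (edgeR adjusted p = 0.055 to 0.56). It was lower than IGROV-1 in OVKATE (-1.06 ± 0.18, SE, edgeR adjusted p = 0.0016) and in COV504 (-0.84 ± 0.18, 0.0058, and 0.14 with DESeq2). The other 4 lines had log2 changes from -0.45 to 0.33 with edgeR adjusted p-values from 0.068 to 0.53.

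Among the β subunits, ITGB1 (ENSG00000150093, chromosome 10, 32900319 to 33005792, minus strand), the shared partner of ITGA2, ITGA3, ITGA5, ITGA6 and ITGAV, had the most counts of the β members in every library. Its levels were 1204.2 CPM in OVTOKO, 875.2 in SK-OV-3, 612.9 in OVMANA, 299.2 in OVKATE, 290.1 in COV504 and 132.4 in COV362. IGROV-1 held 223.8 and 239.7 CPM on PromethION (231.8 ± 11.2, SD, n = 2) and 268.4 and 290.1 CPM on MinION. Against IGROV-1 it was higher in OVTOKO by 2.45 ± 0.14 log2 units (SE; edgeR adjusted p = 9.3e-06), SK-OV-3 by 1.69 ± 0.14 (6.4e-05) and OVMANA by 1.46 ± 0.15 (0.00014). It was lower in COV362 (-0.76 ± 0.16, edgeR adjusted p = 0.0058, and 0.062 with DESeq2), and OVKATE (0.07 ± 0.15, 0.75) and COV504 (0.25 ± 0.15, 0.22) were not called. Its order broke at 3 places: OVTOKO above SK-OV-3 (edgeR adjusted p = 0.013), OVMANA above OVKATE (0.00058) and IGROV-1 above COV362 (0.0058).

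ITGB4 (ENSG00000132470), the hemidesmosomal partner of ITGA6, was present in all 6 other lines and not detected in IGROV-1. OVTOKO held 296.0 CPM, OVKATE 211.2, COV504 171.7, SK-OV-3 157.0, OVMANA 91.4 and COV362 18.8, from 512, 427, 386, 310, 171 and 48 counts. Each IGROV-1 library held 0 counts, and 3 counts over the PromethION pair, the limit of detection for the group, correspond to 0.64 CPM. Against that limit ITGB4 was at least 461-fold higher in OVTOKO, 329-fold in OVKATE, 267-fold in COV504, 244-fold in SK-OV-3, 142-fold in OVMANA and 29.3-fold in COV362. It passed the filter through the lines where it is high. Its calls in the 6 lines therefore follow from the counts of 0 and add nothing to them. OVTOKO stood above OVKATE (edgeR adjusted p = 0.015) and OVMANA above COV362 (0.0011), and the 3 other steps between lines outside IGROV-1 were not called (0.13 to 0.81).

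ITGB6 (ENSG00000115221, chromosome 2, 160099666 to 160200313, minus strand), an epithelial subunit that with ITGAV binds fibronectin and activates latent TGFβ, split the lines into a set with it and a set nearly without. It stood at 52.9 CPM in OVKATE, 23.0 in OVMANA, 21.8 in SK-OV-3 and 20.2 in OVTOKO. COV504 held 2 counts (0.9 CPM) and COV362 1 count (0.4 CPM), IGROV-1 held 0 counts in both PromethION libraries and 0 and 2 on MinION, all at or under the limit of detection. Against that limit ITGB6 was at least 82.4-fold higher than IGROV-1 in OVKATE, 35.8-fold in OVMANA, 33.9-fold in SK-OV-3 and 31.5-fold in OVTOKO. As for ITGB4, the calls in these 4 lines follow from the counts of 0 in IGROV-1. The step from OVTOKO to COV504 was called (edgeR adjusted p = 0.0042) and the other 5 were not.

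ITGB8 (ENSG00000105855, chromosome 7, 20330702 to 20415754, plus strand), which with ITGAV also binds latent TGFβ, was highest in COV504 and OVKATE and lowest in OVTOKO. COV504 held 182.9 CPM, OVKATE 167.2, COV362 44.3, OVMANA 17.6, SK-OV-3 3.5 (7 counts) and OVTOKO 1.2 (2 counts). IGROV-1 held 9.0 and 11.2 CPM on PromethION (10.1 ± 1.6, SD, n = 2) and 6.5 and 13.9 on MinION. The step from COV504 to OVKATE was not called (0.35 log2 units, edgeR adjusted p = 0.36), and the steps from OVKATE to COV362 (0.0057) and from COV362 to OVMANA (0.032) were called. Against IGROV-1 it was higher in COV504 by 4.10 ± 0.29 log2 units (SE; edgeR adjusted p = 2.2e-05), OVKATE by 3.75 ± 0.30 (3.2e-05) and COV362 by 2.17 ± 0.34 (0.0014). It was lower in OVTOKO (-2.99 ± 0.85, edgeR adjusted p = 0.027), a call lost with no filter on low counts (0.056) and with DESeq2 (0.099). OVMANA (0.87 ± 0.43, 0.15) was not called. SK-OV-3 (-1.72 ± 0.61, edgeR adjusted p = 0.0504) lay at the threshold and was called without any 1 of the 4 IGROV-1 libraries (0.0042 to 0.048).

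ITGB5 (ENSG00000082781, chromosome 3, 124761948 to 124901418, minus strand), the vitronectin-binding partner of ITGAV, was highest where ITGA6 was also highest. It stood at 154.5 CPM in SK-OV-3, 127.2 in COV504, 74.8 in COV362, 54.3 in OVTOKO, 17.6 in OVMANA and 11.9 in OVKATE. IGROV-1 held 25.2 and 24.5 CPM on PromethION (24.8 ± 0.5, SD, n = 2) and 29.7 and 27.8 on MinION, and the 4 libraries lay between OVTOKO and OVMANA. Against IGROV-1 it was higher in SK-OV-3 by 2.41 ± 0.18 log2 units (SE; edgeR adjusted p = 3.5e-05), COV504 by 2.28 ± 0.18 (4e-05), COV362 by 1.63 ± 0.19 (0.00034) and OVTOKO by 1.21 ± 0.21 (0.0029). It was lower in OVKATE (-1.36 ± 0.27, edgeR adjusted p = 0.0036), and OVMANA (-0.43 ± 0.26, 0.23) was not called. The calls in OVTOKO and OVKATE each had an adjusted p of 0.15 with DESeq2.

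The make-up of each family gives the same counts as shares of the 5 β or the 5 α members in a library. ITGB1 took 86.8% and 87.1% of the β counts in the PromethION and 88.1% and 87.3% in the MinION libraries of IGROV-1, 80.4% in OVMANA, 76.4% in OVTOKO and 72.2% in SK-OV-3. It took 48.9% in COV362, 40.3% in OVKATE and 37.5% in COV504, so in these 3 lines the other 4 subunits together held more counts than ITGB1. In OVKATE these were ITGB4 (28.4%) and ITGB8 (22.5%), in COV504 ITGB8 (23.7%), ITGB4 (22.2%) and ITGB5 (16.5%), and in COV362 ITGB5 (27.6%) and ITGB8 (16.4%). The summed level of the 5 β members ran from 258.0 CPM in IGROV-1 (PromethION replicate 1) and 270.7 CPM in COV362 to 1575.9 CPM in OVTOKO.

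Among the α members, ITGAV took 69.0% to 76.2% of the counts in the 4 IGROV-1 libraries and 22.5% to 49.8% in the other lines. ITGA3 took 62.0% in OVKATE, 22.0% to 35.4% in the other 5 lines outside IGROV-1 and 0.7% to 1.5% in IGROV-1. ITGA6 took 31.7% in SK-OV-3, 29.3% in COV504 and 27.8% in COV362, and ITGA5 took 24.0% in OVTOKO. The summed α level varied less than the β level, from 252.9 CPM in IGROV-1 (PromethION replicate 1) to 680.7 CPM in SK-OV-3. These shares are descriptions of counts not divided by length, with no test.

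**Figure D3:**
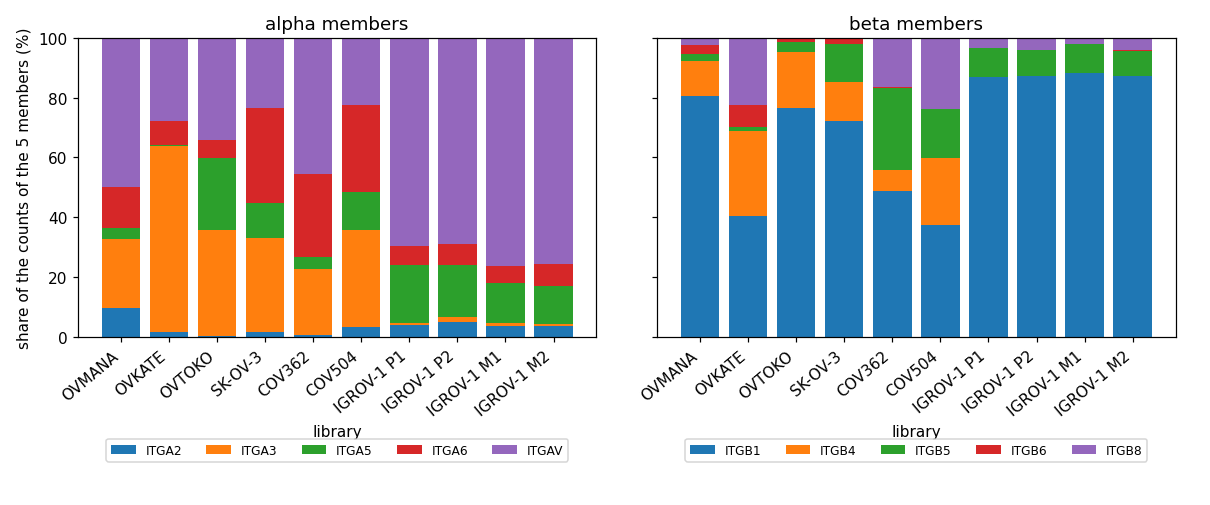
Share of each subunit (y axis, percent) in the counts of the 5 α members (left) and of the 5 β members (right) in each library (x axis), as stacked bars from 0 to 100%, with P and M the PromethION and MinION replicates of IGROV-1. The ITGB1 part falls from 86.8% or more in IGROV-1 to 37.5% in COV504, and the ITGA3 part is 0.7% to 1.5% in IGROV-1 and 22.0% or more elsewhere.

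The ITGA6 counts came from ENST00000264107, with the exon of 130 bases, and ENST00000409080, without it; the other 3 annotated transcripts were listed at 0 counts. The skipped form was the larger in every library. The exon was included in 42.9% of the counts in OVKATE (Wilson 95% interval 31.7 to 54.9) and 39.3% in COV504 (34.1 to 44.7). The share was 22.6% in SK-OV-3 (18.9 to 26.8), 18.9% in OVMANA (12.8 to 26.9), 15.6% in COV362 (11.6 to 20.8) and 9.7% in OVTOKO (4.4 to 19.7). IGROV-1 had 1.3% and 4.5% on PromethION (2.9 ± 2.3, SD, n = 2) and 14.0% and 2.4% on MinION (8.2 ± 8.2, SD, n = 2). The PromethION shares came from 0.5 of 37 and 2.0 of 45 estimated counts. Their intervals (0.1 to 11.7 and 1.3 to 14.9) overlapped with those of OVTOKO and COV362, and that of replicate 2 also with OVMANA. The interval of its MinION replicate 1 (7.6 to 24.3) overlapped with those of OVTOKO, COV362, OVMANA and SK-OV-3. As levels, the included form stood at 56.3 CPM in COV504, 48.8 in SK-OV-3 and 14.0 in OVKATE, and the skipped form at 87.0, 166.9 and 18.6 CPM.

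Usage of the exon against IGROV-1 was not called in any line by edgeR's test of transcript usage (Simes p per gene, Benjamini-Hochberg over 4731 genes). It came nearest in OVKATE, with a relative change of 2.75 in natural-log units and an adjusted p of 0.060, and COV504, with 2.67 and 0.075. The included form in IGROV-1 PromethION, against which these changes were measured, had 0.5 and 2.0 estimated counts in replicates 1 and 2. Without replicate 2 the changes were 4.92 and 4.83. With both replicates, the changes in OVKATE and COV504 were called with transcripts or exon forms under a mean of 10 CPM left out (edgeR adjusted p = 0.041 and 0.046). They were also called with edgeR's F test per gene in place of Simes (0.016 and 0.019). The relative changes in the other 4 lines ran from 1.31 in OVTOKO to 2.12 in SK-OV-3 in natural-log units, with edgeR adjusted p-values of 0.23 to 1. In 4 of the 6 lines the unadjusted p of ITGA6 was under 0.05, where 542 (OVTOKO) to 783 (OVKATE) of the 4731 genes were under it. Of all genes, 1.37% (OVTOKO) to 4.73% (OVKATE) were called in the same tests. The share and the level did not rank the lines alike: OVKATE had the highest share and the lowest ITGA6 level outside IGROV-1.

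ITGB4 counts were spread over 3 main transcripts. The exon of 210 bases was in 36.6% of the counts in OVMANA, 38.8% in OVKATE, 37.4% in OVTOKO, 38.5% in COV362 and 37.6% in COV504, and in 21.8% in SK-OV-3 (Wilson 95% interval 17.5 to 26.7). The exon of 159 bases was in 62.7% of the counts in SK-OV-3 (57.2 to 67.9), 49.2% in COV362 (35.7 to 62.9) and 33.1% to 36.7% in the other 4 lines. ENST00000450894, with neither exon, took 15.2% in SK-OV-3, 23.3% to 26.9% in OVMANA, OVKATE, OVTOKO and COV504, and 8.0% in COV362 (3.9 of 48 counts). The shares in SK-OV-3 lay outside the counting intervals of OVMANA, OVKATE, OVTOKO and COV504 for both exons. With no ITGB4 counts in IGROV-1 there is no share there to compare with.

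The 6 lines outside IGROV-1 were compared in pairs for the 3 exons, a test chosen after seeing the data. None of the 15 pairs was called for the ITGA6 exon (smallest edgeR adjusted p = 0.49), the ITGB4 exon of 210 bases (0.55) or that of 159 bases (0.40), while 0.19% to 1.56% of all genes were called in these pairs. At an unadjusted p under 0.05 there were 0, 0 and 4 pairs, and the share of all genes under it was not counted. The 4 set SK-OV-3, with more of the exon of 159 bases, against OVMANA, OVKATE, OVTOKO and COV504. Their relative differences were 0.55, 0.53, 0.59 and 0.63 in natural-log units (edgeR adjusted p = 0.44, 0.40, 0.46 and 0.41). Each such pair sets 1 library against another, with a spread taken from IGROV-1, which holds no ITGB4.

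**Figure D4:**
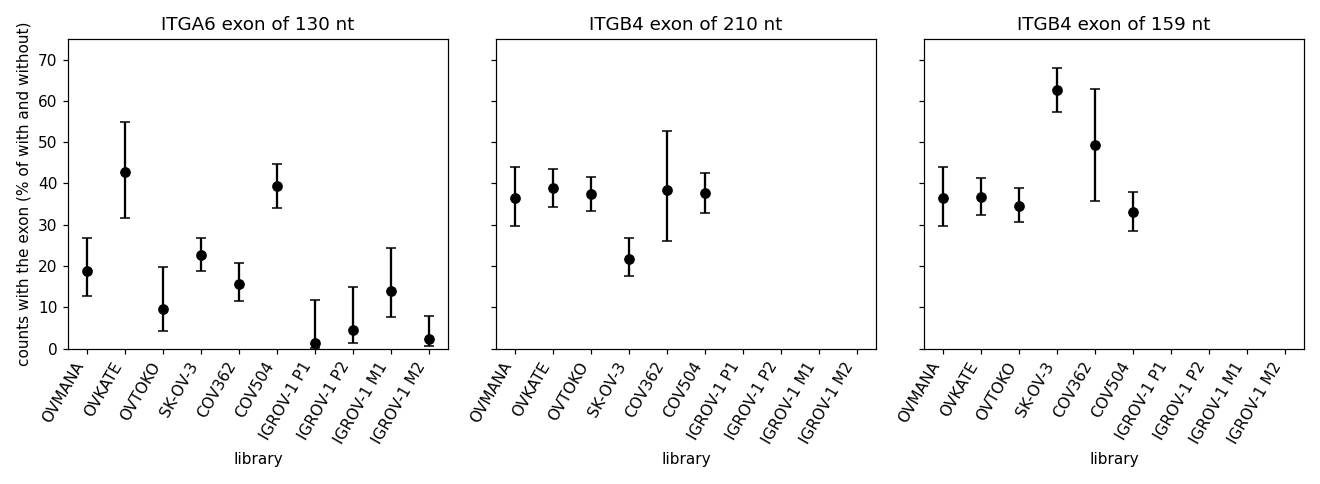
Share of counts with the ITGA6 exon of 130 bases (left), the ITGB4 exon of 210 bases (middle) and the ITGB4 exon of 159 bases (right) among counts with or without it (y axis, percent) in each library (x axis), with Wilson 95% intervals; no ITGB4 point is drawn for IGROV-1, which held 0 counts. OVKATE (42.9%) and COV504 (39.3%) have the highest ITGA6 shares, and SK-OV-3 is the lowest for the exon of 210 bases (21.8%) and the highest for that of 159 bases (62.7%).

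Of the other members, ITGB6 varied in its transcripts and the rest varied little. All ITGA3 counts fell on ENST00000320031, which holds a 142-base exon at the position where ENST00000007722 skips it, and the latter was listed at 0 in all 10 libraries. ITGA2 and ITGA5 had a single annotated transcript each, as had ITGB5. ITGAV came by 93.6% to 99.8% from ENST00000261023, with ENST00000374907 reaching 6.4% in COV504. ITGB1 came by 89.6% to 96.1% from ENST00000302278, and ENST00000423113, which holds an exon of 81 bases that the others skip, took 0.5% to 1.8%. ITGB8 came by 95.2% or more from ENST00000222573. For ITGB6, ENST00000620391, with a shorter coding sequence (2079 against 2364 bases in ENST00000283249), took 40.4% in OVTOKO (Wilson 95% interval 25.9 to 56.8, 35 counts). It took 18.6% in SK-OV-3 (9.7 to 32.6, 43 counts), 8.7% in OVKATE (4.7 to 15.6, 107 counts) and 3.3% in OVMANA (0.7 to 13.5, 43 counts). Transcript usage against IGROV-1 could be tested for ITGA6, ITGAV and ITGB1, the 3 members with more than 1 transcript past the filter and with counts in IGROV-1. None of their 18 pairs with a line was called (edgeR, Simes), where 1.37% to 4.74% of 4730 genes were called. At an unadjusted p under 0.05 there were 5 of the 18 pairs, 4 of them ITGA6, beside 542 (OVTOKO) to 783 (OVKATE) of the 4730 genes per line.

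The instruments could be compared within IGROV-1, with 2 libraries on each. Of the 7 members that passed the filter on low counts, 0 were called by edgeR between MinION and PromethION at an adjusted p under 0.05, and 0 by DESeq2, where edgeR called 0.817% of 10041 genes (0.11% higher and 0.707% lower on MinION). At an unadjusted p under 0.05, edgeR gave 1659 genes, 1 of them a member. ITGAV had the largest difference among the 7 members, at 0.43 ± 0.13 log2 units higher on MinION (SE; edgeR adjusted p = 0.17), and its 2 MinION values lay above its 2 PromethION values. ITGB1 (0.23 ± 0.12, edgeR adjusted p = 0.38) and ITGB5 (0.17 ± 0.18, 0.68) likewise had both MinION values above both PromethION values. ITGA5 had both below (-0.21 ± 0.15, edgeR adjusted p = 0.54). How many of all genes separate in this way was not counted. ITGA2, ITGA6 and ITGB8 had log2 differences from -0.04 (ITGB8) to 0.34 (ITGA6). With the replicate number as a block, ITGAV (edgeR adjusted p = 1.6e-06) and ITGB1 (0.016) were called. ITGA3, ITGB4 and ITGB6 did not pass the filter in these libraries. Transcript usage was tested between the instruments for 2 members, ITGAV and ITGB1. Neither was called by edgeR (Simes), or had an unadjusted p under 0.05, where 5.91% of 2979 genes were called.

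Genes that work with these receptors were counted from lists chosen with earlier results of these data known. Of 8 hemidesmosome and tetraspanin partners, all of which were tested, 8 were higher in COV504, 7 in OVTOKO, 6 in SK-OV-3, 5 in OVMANA and 4 in OVKATE and COV362 each, and 0 to 2 were lower. Of all genes, 18.2% (OVTOKO) to 26.8% (OVKATE) were higher and 15.9% to 22.4% lower per line. Their median log2 changes ran from 0.50 in COV362 to 2.45 in COV504. PLEC, which encodes plectin, the link from ITGB4 to keratin filaments, stood at 50.2 to 94.8 CPM in the 6 lines and at 9.4 to 19.5 CPM in IGROV-1, and was called higher in all 6 by 1.91 to 3.15 log2 units (largest edgeR adjusted p = 0.00063). CD151, a tetraspanin bound to the laminin-binding integrins, was called higher in 5 of 6 lines, by 0.74 to 1.93 log2 units, with COV362 the exception (-0.39 ± 0.16, edgeR adjusted p = 0.080). DST, whose products include the hemidesmosome plaque protein BPAG1, was taken as the sum of its transcripts. It was higher in 4 lines, lower in OVMANA (-3.31 ± 1.00, edgeR adjusted p = 0.032) and not called in OVKATE (0.55 ± 0.46, 0.35). COL17A1 of the same list stood at 25.4 CPM in COV504 and 8.0 in OVMANA. It stood at 0 to 1.2 CPM in OVKATE, OVTOKO, SK-OV-3 and COV362, below the 4.1 to 5.6 CPM of IGROV-1.

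Of 24 integrin ligands 21 were tested. Those higher numbered 12 in COV504 and COV362, 10 in OVTOKO, 9 in SK-OV-3, 8 in OVMANA and 6 in OVKATE, and those lower numbered 6, 6, 4, 4, 2 and 7, beside the same shares of all genes. FN1, which encodes fibronectin, the ligand of ITGA5 and ITGB1, stood at 782.0 CPM in SK-OV-3 and 265.6 in COV504, 34.1 in COV362, 11.7 to 13.3 in IGROV-1, 9.2 in OVTOKO, and 0 in OVMANA and OVKATE. TGFB1, whose latent form ITGB6 and ITGB8 integrins bind, was at 5.5 CPM in COV362 to 89.1 CPM in SK-OV-3 and at 0 in the 4 IGROV-1 libraries.

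Of 22 activators and adhesion adaptors 21 were tested, of which 6 to 9 were higher and 1 to 8 lower per line, beside the same shares of all genes. Their median log2 changes ran from -0.47 in OVKATE to 0.63 in COV504. TLN1, the talin that binds β tails, was higher in SK-OV-3 (0.98 ± 0.20, edgeR adjusted p = 0.0044) and lower in OVKATE (-1.34 ± 0.24, 0.002) and OVMANA (-1.05 ± 0.24, 0.010). FERMT2, the kindlin-2 gene, stood at 14.5 to 116.2 CPM in the 6 lines and at 62.4 and 138.3 CPM on PromethION and 79.4 and 137.8 CPM on MinION in IGROV-1. ILK, the integrin-linked kinase, was higher in OVTOKO (1.05 ± 0.21) and COV504 (1.12 ± 0.20, edgeR adjusted p = 0.0027).

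Of 16 integrin subunits outside the members 8 were tested, with 1 to 4 higher and 0 to 2 lower per line. Of all genes, 18.2% to 26.8% were higher and 15.9% to 22.4% lower per line. ITGA1, a collagen receptor subunit, stood at 15.0 to 21.6 CPM in IGROV-1. It stood at 0 in OVMANA, 4.0 in OVKATE and 8.6 in COV362, and was called lower in these 3 lines. ITGA4 stood at 3.0 CPM or less in all 10 libraries. A list of 6 splicing regulators held ESRP1, ESRP2, RBFOX2, PTBP1, QKI and MBNL1, not all of them particular to epithelial cells. ESRP1, whose product acts on exon choice in epithelial cells, stood at 87.1 CPM in OVMANA and 84.1 in OVKATE. It stood at 24.9 in COV504, 5.1 in COV362 and 0 in the other 6 libraries. ESRP2 stood at 25.1 and 25.7 CPM in OVMANA and OVKATE and 0 to 6.7 CPM elsewhere, and RBFOX2 was lower than IGROV-1 in 5 lines, with SK-OV-3 not called (-0.22, edgeR adjusted p = 0.51). Of this list's 6 genes, 0 to 3 were higher and 1 to 3 lower per line, beside the same shares of all genes.

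The labels were set against cell type markers. Of 8 epithelial carcinoma markers, 6 were higher than in IGROV-1 in OVMANA, OVKATE and COV504, 4 in COV362 and 3 in OVTOKO and SK-OV-3. In each line 0 or 1 of the 8 was lower. Of all genes, 18.2% to 26.8% were higher and 15.9% to 22.4% lower per line. The summed level of the 8 markers was 693.7 to 8894.7 CPM in the 6 lines and 569.0 to 1437.2 CPM in IGROV-1. In IGROV-1, EPCAM stood at 0 to 1.5 CPM, KRT8 at 5.2 to 11.4, KRT18 at 243.6 to 1079.5, KRT19 at 140.1 to 177.0 and PAX8 at 134.4 to 210.6 CPM. In OVTOKO, the line with the most ITGB4, EPCAM stood at 8.7, CDH1 at 2.3 and KRT19 at 0.6 CPM, with WT1 and MUC16 at 0. KRT8 stood there at 133.5, KRT18 at 314.5 and PAX8 at 234.1 CPM, and EPCAM and KRT8 were called higher than in IGROV-1. The 13 markers of leukocytes, endothelium, fibroblasts and platelets summed to 1.7 to 97.7 CPM, with PTPRC at 0.4 CPM or less and CD3E at 0 in all 10 libraries. The highest sum, in SK-OV-3, came mostly from LUM (52.7 CPM) and COL3A1 (33.9 CPM). The part of either marker set in the integrin differences was not tested.

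The genes most like each member over the 7 lines were ranked by Pearson's correlation of log2(CPM + 1) among 10409 genes with 10 CPM or more in a line, which describes 7 points and carries no test. ITGB4 was most like DMXL1 (r = 0.98) and the member ITGA3 (0.97), the only member among the 2 nearest genes of another. ITGA3 was most like ABCA1 and CYP1B1 (both 0.99), ITGA6 like PSMB1 and ANTXR2 (both 0.98), and ITGAV like NOP53 (1.00) and VLDLR (0.98). ITGB1 was most like LASP1 and ESD (both 0.98), ITGB5 like ZCCHC14 (0.99) and CMC4 (0.98), and ITGB6 like CLPP (0.97) and YBEY (0.96). ITGB8 was most like MARC1 (0.99) and MFGE8 (0.98), ITGA5 like TFB1M (0.96) and C12orf65 (0.95), and ITGA2 like BCAS4 (0.97).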

How the data were processed

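The deposited files hold 1 table per library with estimated counts per transcript, made by the authors from nanopore long reads, and a column named TPM. The deposited TPM column equals the authors' counts scaled to a library total of 1000000 (CPM) to within rounding, so it is called CPM here. Minimap2 2.24-r1122 and GRCh38 are named in the submitters' processing notes, and no label or header gives the counter's settings. All 27 member transcripts were found in GENCODE 29 with the same ends. Estimated counts were summed per gene, rounded, and tested with edgeR 4.0.16 (quasi-likelihood, TMM, filterByExpr, Benjamini-Hochberg, R 4.3.3), with DESeq2 1.42.0 as an alternative. All 10 libraries in 8 groups entered the fit, leaving 2 residual degrees of freedom and a coefficient of biological variation of 11.7%. Transcript usage was tested with diffSpliceDGE. On simulated data, 26% of genes changed by 1 log2 unit and 84% of those changed by 2 were recovered between a line and IGROV-1. A log2 change of 2 in usage was recovered for 51.5% of genes. Members and gene lists were chosen with earlier results of these data known. Named were all members, their transcripts with 10% or more of a gene of 50 or more counts, the first 3 genes of each list as written, and the 2 genes nearest each member; further genes were named after their values were seen. A few genes that this rule names are not reported here.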

Additional observations from a re-analysis of the deposited data

How the results depend on the processing

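With DESeq2 5 members were called in OVTOKO in place of 9, 6 in OVKATE and COV362 in place of 8 each, and 5 in OVMANA and COV504 in place of 7 and 6. With no filter on low counts 7 were called in OVTOKO. Without 1 IGROV-1 library, the members called ranged from 7 to 8 in OVKATE, 7 to 9 in OVTOKO and 6 to 7 in SK-OV-3, with no change of the count in OVMANA, COV362 and COV504, and the neighbouring pairs called ranged from 14 to 19. For transcript usage and for cassette exons alike, 0 pairs of member and line were called in the main test. With transcripts or exon forms under a mean of 10 CPM left out 2 were called, and with the F test 2. Between the instruments, the replicate block called 2 members in place of 0. Same-numbered libraries deviated together (correlation 0.49 over 7894 genes), but with 2 pairs and no word in the labels the numbers do not count as pairing. No paired analysis was possible for the lines because each of the 6 has 1 library. Signs turned only for instrument differences near 0: without 1 library ITGB8 ranged from -0.61 to 0.38 (0.12 without PromethION replicate 2) in place of -0.04, and ITGA2 from -0.24 to 0.22 (0.04 without MinION replicate 1) in place of -0.03, and to 0 with no filter. The cause was not tested. Depth limits ITGB6 in COV362, COV504 and IGROV-1, ITGB4 in IGROV-1, ITGB8 and ITGA2 in OVTOKO and ITGA5 in OVKATE, which rest on 0 to 3 counts.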

Other observations

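ITGB2, the β subunit of leukocyte integrins, stood at 152.8 CPM in OVMANA and 99.9 CPM in OVKATE, at 2.3 to 8.6 CPM in the other 4 lines and at 0 in the 4 IGROV-1 libraries, and was picked out after its values were seen. PTPRC, which encodes the leukocyte antigen CD45, stood at 0 in both lines, and LYZ, the lysozyme gene of myeloid cells, at 0 in OVMANA, 12.4 CPM in OVKATE and 1.3 CPM or less elsewhere. Of the 13 markers of other cell types 5 were tested. Of these, edgeR called 1 higher than in IGROV-1 in OVKATE, beside 26.8% of all genes, and 0 in OVMANA, beside 18.9%. The part of such cells in these values was not tested. ITGAD, a leukocyte α subunit, stood at 73.4 CPM in OVTOKO and at 0.5 CPM or less in the other 9 libraries. ITGAX, another leukocyte α subunit, stood at 8.7 CPM in OVTOKO and 1.0 CPM or less elsewhere. SPP1, which encodes osteopontin, an RGD ligand of ITGAV integrins, stood at 16460.7 CPM in OVMANA and 7190.5 CPM in OVTOKO, and at 8.9 to 828.6 CPM in the other libraries.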
